A study of Mus musculus with 48 samples.

Results

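The nuclear genes for the subunits of the mitochondrial respiratory chain and of ATP synthase were followed by complex through the tibiae of young and aged mice on 2 diets. Members were the entries of the deposited table whose names match those of complex I (Nduf genes), succinate dehydrogenase (Sdha to Sdhd), complex III (Uqcr genes and Cyc1), complex IV (Cox4 to Cox8 genes followed by a, b or c) and ATP synthase (Atp5 genes), averaging 1 FPKM or more over the 12 mice, where FPKM is a level corrected for the length of the transcript and the size of the library. Of 29801 entries, 85 matched by name, 4 pseudogene entries marked -ps were left out by name, and the remaining 81 all passed the threshold, so that no matched gene lay just outside it. The lowest member, Ndufa4l2, was at 2.89 FPKM. They comprised 35 genes of complex I, 4 of complex II, 9 of complex III, 16 of complex IV and 15 of ATP synthase, and 2 more, Atp5s and Atp5sl, that share the name but not the place in the enzyme. Ndufa4 and Ndufa4l2, which bear a complex I name, were counted with complex IV, where the Ndufa4 protein sits.

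All mice were male C57Bl6J, 3 in each group, fed freely (AL) or under caloric restriction (CR) at young or old age. Each mouse had 4 technical repeats in the labels and 1 set of values in the table. AL mice ate the NIH-31 diet freely, and CR mice received for 8 weeks less of a diet of the same family enriched in micronutrients, reduced by 10% in the first week, 20% in the second and 40% from the third, so that amount and formula of the food differed together. When the diets began, young mice were 10 weeks old by the series' description, for which the methods give a range, and aged mice 15 to 18 months, and the bones were collected when the 8 weeks ended. RNA came from the whole tibia, ground after muscle and connective tissue had been taken off, and the values are those of bone, marrow and vessels together. The methods also describe an operation on the right tibia of mice during the diet, and the sources used here do not say whether the sequenced bones came from operated mice.

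The respiratory chain passes electrons from NADH, through complex I, and from succinate, through complex II, to coenzyme Q, then through complex III to cytochrome c and through complex IV to oxygen. Complexes I, III and IV pump protons as they do so, and ATP synthase uses the return of the protons to make ATP. Most subunits are nuclear genes whose proteins are imported into the mitochondrion, while a core of the proton-pumping complexes and of ATP synthase is made from mitochondrial DNA. In marrow these genes serve blood-forming cells, fat cells and bone cells alike, and maturing red cells lose their mitochondria.

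None of the mitochondrially encoded genes was in the table, so the members cover the nuclear side alone. The deposited values had been quantile normalized, and every mouse summed to between 636207 and 636212 FPKM. The members held 1.11% to 1.33% of that sum. The depth behind each mouse is unknown from FPKM, and the error given is the spread between mice. Markers of bone and marrow were present, with summed levels per mouse of 523 to 2341 FPKM for 10 osteoblast and osteocyte markers, 28580 to 46080 FPKM for 10 neutrophil markers and 186500 to 187500 FPKM for 11 erythroid markers. The erythroid sum is mostly globin genes, whose top values are nearly the same in all mice after quantile normalization. It therefore does not show equal erythroid content, and Alas2, for example, ranged from 458 to 1050 FPKM. The 12 skeletal muscle markers were present in every mouse, at a sum of 183 to 1399 FPKM. Aged AL mouse 14 and aged CR mouse 5 stood farthest from their groups over all genes, at a root mean square difference of 0.435 and 0.378 on the log2 scale.

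Levels differed widely between subunits of 1 complex. In complex I, the median member was at 52.3 FPKM, from 11.1 FPKM for Ndufb4 to 152 FPKM for Ndufb9, both accessory subunits of the membrane arm. In complex II, Sdhc, a membrane anchor, was lowest at 20.1 FPKM, and Sdhd, the other anchor, highest at 79.3 FPKM, with the flavoprotein Sdha at 54.1 and the iron-sulfur subunit Sdhb at 64.6 FPKM between them. In complex III, levels ran from 53.2 FPKM for Uqcrq to 329.8 FPKM for Uqcrh, the hinge protein. ATP synthase reached from 36.0 FPKM for Atp5g2 to 371 FPKM for Atp5b, the catalytic beta subunit and the highest member of all, while the alpha subunit Atp5a1, which pairs with beta in the head, was at 206 FPKM. FPKM is a level per length of transcript, and a ratio between these genes is not a ratio of their proteins.

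Complex IV had the widest range, 86.8 times from Ndufa4l2 to Cox8a, and several of its subunits are known to have isoforms for particular tissues. Cox8a, at 250.5 FPKM, was the steadiest member, with a coefficient of variation of 2.1% over the 12 mice. The ubiquitous isoforms Cox6a1 and Cox7a2 were at 225 and 138 FPKM, and their muscle and heart counterparts Cox6a2, Cox7a1 and Cox8b at 10.8, 7.23 and 9.39 FPKM. Cox6b1, the ubiquitous form, was at 235 FPKM and Cox6b2, known as the testis form, at 64.6 FPKM. Cox7b was at 103 FPKM. Of the Cox4 family, which the name rule does not reach, Cox4i1 was at group means of 320 to 363 FPKM and Cox4i2, the form induced by low oxygen, at 2.18 to 3.68 FPKM. The 3 genes for the same c-ring protein of ATP synthase were at 39.8 (Atp5g1), 36.0 (Atp5g2) and 237 FPKM (Atp5g3).

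Promoters of the members were read from RefSeq on GRCm38.p6, from 250 bases before to 50 after the first listed start. An entry was found for 68 of the 81. Members without one included Atp5a1, Ndufa2, Ndufb9, Ndufs1, Sdhc, Cyc1, Uqcrb, Uqcrc2, Uqcrq, Cox6a2, Cox6c and Ndufa4l2. NRF1, GABPA (an ETS factor), YY1, the estrogen-related receptors and CREB are factors known to drive respiratory genes. On either strand, GCGCATGC, the core of the NRF1 site, was in 10 of 68 members' promoters (14.7%), against 2.8% of all 27025 promoters and 5.5% of the 9146 promoters of genes above 1 FPKM in bone. The ETS letters CCGGAAG were in 15 (22.1%), against 9.1% and 18.7%. The YY1 letters AAGATGGC were in 10 (14.7%), against 2.9% and 4.9%, and 7 of these 10 belonged to complex I. The estrogen-related receptor letters CAAGGTCA were in 4 (5.9%), against 1.5% and 1.0%, and TGACGTCA, the cyclic AMP response element, in 4 (5.9%), against 1.9% and 3.2%. A match describes the letters and does not show that a factor was bound.

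3 promoters are printed 5′ to 3′, the first for the member with the smallest p for diet over both ages (Uqcr11), the second for the ubiquitous isoform with the smallest p for age (Cox6a1), and the third for a muscle isoform (Cox8b), with NRF1 and ETS letters on either strand in capitals. Uqcr11 is at chr10:80406772-80407071 on the minus strand, Cox6a1 at chr5:115348909-115349208 on the minus strand and Cox8b at chr7:140900397-140900696 on the minus strand.
Uqcr11: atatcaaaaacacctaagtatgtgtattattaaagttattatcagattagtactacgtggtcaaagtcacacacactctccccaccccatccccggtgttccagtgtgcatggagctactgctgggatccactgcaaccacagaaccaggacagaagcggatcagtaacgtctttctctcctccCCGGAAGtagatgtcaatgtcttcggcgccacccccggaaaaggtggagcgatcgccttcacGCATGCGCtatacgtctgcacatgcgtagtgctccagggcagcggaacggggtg
Cox6a1: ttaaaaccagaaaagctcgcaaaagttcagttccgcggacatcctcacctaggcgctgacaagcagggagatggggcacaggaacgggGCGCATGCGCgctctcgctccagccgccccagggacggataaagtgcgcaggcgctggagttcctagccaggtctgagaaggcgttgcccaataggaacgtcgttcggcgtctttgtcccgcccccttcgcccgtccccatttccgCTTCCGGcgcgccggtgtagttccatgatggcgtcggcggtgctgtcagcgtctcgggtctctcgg
Cox8b: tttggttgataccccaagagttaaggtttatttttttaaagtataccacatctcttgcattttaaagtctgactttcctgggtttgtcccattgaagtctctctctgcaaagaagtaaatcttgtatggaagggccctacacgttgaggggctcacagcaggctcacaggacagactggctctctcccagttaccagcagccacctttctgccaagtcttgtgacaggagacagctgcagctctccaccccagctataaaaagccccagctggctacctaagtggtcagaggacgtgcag
The first holds 1 NRF1 core and 1 ETS match, and the second overlapping NRF1 cores on both strands and 1 ETS match, while the third holds none of the 5 sets of letters.

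Most members shared the same high and low mice. Each member's deviation from its mean over the 12 mice was averaged on the log2 scale. Among young CR mice, this average was 0.131 in mouse 1 and 0.200 in mouse 2, but -0.108 in mouse 3. Young AL mice 9, 10 and 11 were at -0.051, -0.030 and 0.029. Young CR mice 1 and 2 thus lay above every young AL mouse and young CR mouse 3 below them all. Aged AL mice 13, 14 and 15 were at -0.075, 0.018 and -0.040. Under CR, aged mice 5, 6 and 7 were at 0.052, -0.131 and 0.006, on both sides of the AL mice. Of the 81 members, 39 had their highest value in young CR mouse 2 and 17 in young CR mouse 1, whereas 15 were lowest in aged CR mouse 6 and 13 in young CR mouse 3.

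**Figure D1:**
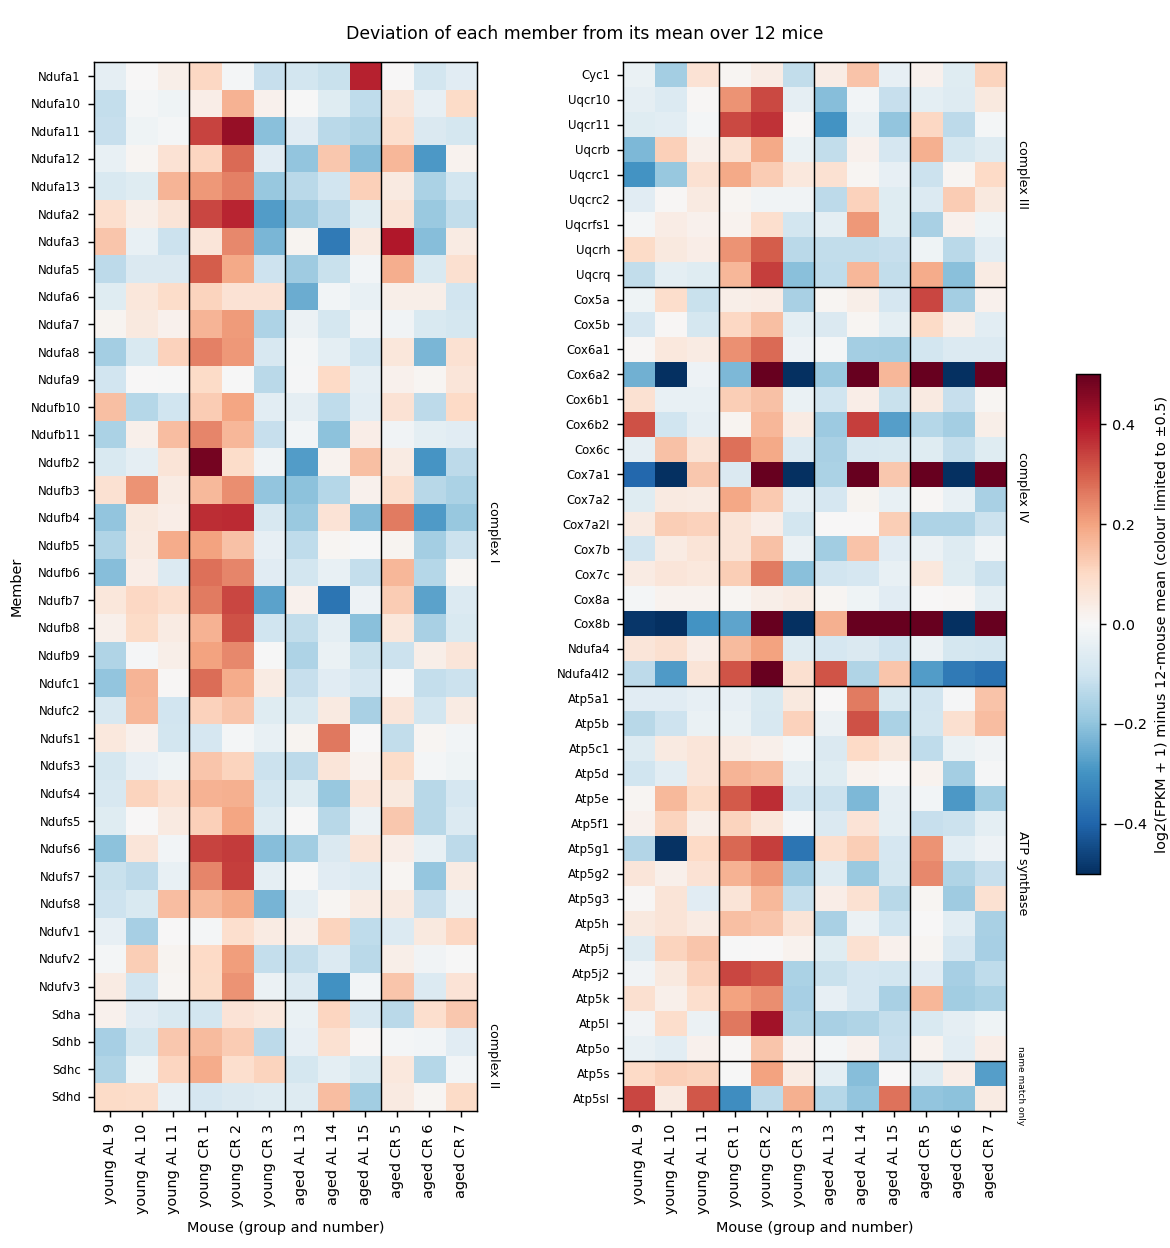
Rows are members by complex (1 of the 81 is not drawn) and columns the 12 mice by group, with vertical lines between groups; colour is the deviation of log2(FPKM + 1) from the member's 12-mouse mean, limited to ±0.5. Young CR mice 1 and 2 are red for most members of complexes I and III, young CR mouse 3 is not, and Cox6a2, Cox7a1 and Cox8b differ most between mice.

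The complexes shared this order to different degrees. In complex I the average deviation was 0.181 and 0.202 in young CR mice 1 and 2 and -0.098 in mouse 3. In complex II it stayed between -0.081 (aged AL mouse 15) and 0.073 (aged AL mouse 14). The F1 head of ATP synthase, which holds the catalytic sites, was highest in aged AL mouse 14, at 0.095, and lowest in aged CR mouse 6, at -0.083. Atp5b, for example, was at 362, 461 and 331 FPKM in aged AL mice 13, 14 and 15. Mouse 14 was also the highest of the 12 for Atp5a1, at 246 FPKM, and for Ndufs1, which carries iron-sulfur clusters of complex I, at 36.3 FPKM.

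In the young CR mice, members with short transcripts deviated more than those with long ones. The members' median transcript was 865 nt, against 2548 nt for all 13548 tested genes with a length, and 58.0% of members were at most 1000 nt, against 16.8%. The 47 members up to 1000 nt averaged 0.163, 0.267 and -0.150 in young CR mice 1, 2 and 3, and the 34 longer members 0.087, 0.108 and -0.049. The short members include the muscle isoforms Cox6a2, Cox7a1 and Cox8b. Averaged together, these were at -0.187, 0.746 and -1.07 in young CR mice 1, 2 and 3, and their part in the contrast was not tested. Genes outside the respiratory chain with transcripts up to 1000 nt had median deviations of 0.136, 0.133 and -0.021 in the same 3 mice. Those over 3000 nt had -0.054, -0.060 and 0.049, so that short and long transcripts went apart in the same mice among other genes too. Results are also given after a smooth trend on transcript length was removed from each mouse, a step chosen after seeing the data.

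**Figure D2:**
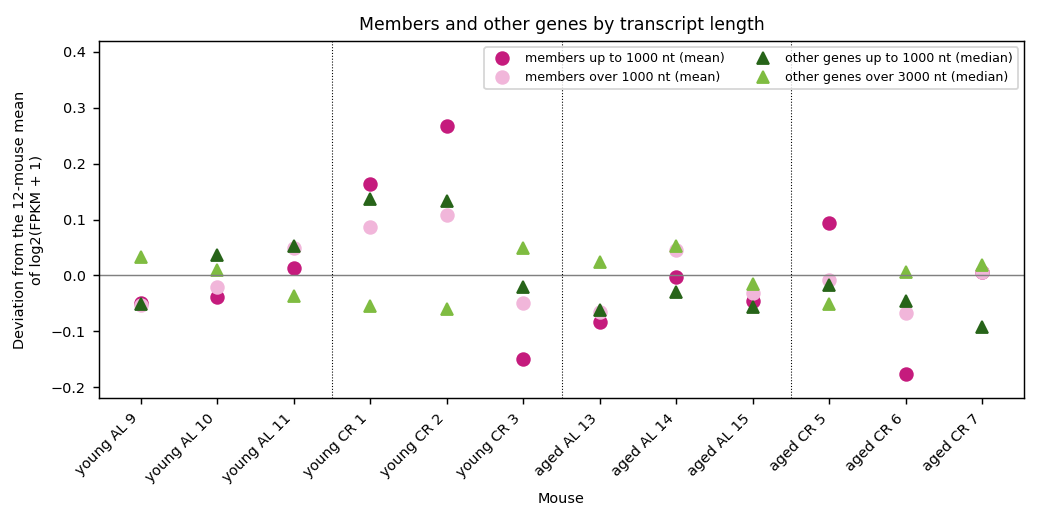
Each column is 1 mouse and the vertical axis is the deviation of log2(FPKM + 1) from the 12-mouse mean. Circles are means over members up to 1000 nt (dark) and over 1000 nt (pale) and triangles medians over other genes up to 1000 nt (dark) and over 3000 nt (pale); in young CR mice 1 and 2 short members and short other genes are above 0 and long other genes below it.

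In young mice, CR was compared with AL to find which members differ with the diet. Most were slightly higher. The log2 difference of log2(FPKM + 1) was above 0 for 69 of 81 members (85.2%, against 52.2% of all 13590 genes tested), with a median of 0.079 against 0.008 for all genes. 0 members passed limma's Benjamini-Hochberg adjusted p under 0.05, where 0.0662% of all genes did, and the smallest adjusted p was 0.328. At an unadjusted p under 0.05, 5 members were higher and 0 lower in limma, against 5.79% and 5.24% of all genes. The higher members were thus near the background and the lower ones below it. An unequal-variance test on FPKM also called 0 members, with 0 at an unadjusted p under 0.05. The share of all genes under that test is not given here. All 3 CR mice exceeded all 3 AL mice for 3 members (10.1% of all genes) and were below them for 1 (9.38% of all genes). The standard error of a member's difference had a median of 0.0986, so that differences as small as the median could not be told from the spread between mice.

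By complex, the median differences in young mice were 0.088 for complex I, 0.069 for complex II, 0.104 for complex III, 0.079 for complex IV and 0.067 for ATP synthase. In complex I, 32 of 35 members were above 0, including 15 of 16 in the peripheral arm, which takes electrons from NADH, and 17 of 19 in the membrane arm, which pumps protons. Ndufs7, the core subunit next to the coenzyme Q site, was at 50.1, 49.5 and 52.9 FPKM in young AL mice 9, 10 and 11 and at 64.4, 69.3 and 52.6 FPKM in young CR mice 1, 2 and 3. CR mice 1 and 2 lay above all AL mice, and CR mouse 3 among them, at a log2 difference of 0.27 (standard error 0.10, limma, adjusted p = 0.372). Ndufb9, an accessory subunit of the membrane arm, was at 137, 151 and 155 FPKM in AL and 174, 179 and 151 FPKM in CR mice, and mouse 3 again fell among the AL values. Its difference was 0.19 and that of Ndufb6, from the same arm, 0.24 (limma, adjusted p = 0.452 and 0.462).

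In complex III, 7 of 9 members were above 0. Uqcr11, a small accessory subunit encoded on chromosome 10 from 80402997 to 80406830 (GRCm38), was at 119, 119 and 123 FPKM in young AL and 156, 159 and 124 FPKM in young CR mice. All CR mice were above all AL mice, though mouse 3 by little. The means were 120.4 ± 2.30 and 147 ± 19.4 FPKM (SD, n = 3 each), a log2 difference of 0.27 (standard error 0.11, limma, adjusted p = 0.395). Uqcrc1, a core subunit on the matrix side, was at 61.9, 67.0 and 80.6 FPKM in AL and 87.3, 83.5 and 79.2 FPKM in CR mice, with 1 AL mouse (11) above the lowest CR mouse. Its difference was 0.26 (limma, adjusted p = 0.382). Uqcr10, another small subunit, had 0.21 (limma, adjusted p = 0.463). Uqcrfs1, the Rieske iron-sulfur protein, and Cyc1, cytochrome c1, which carry redox centres, differed by -0.01 and 0.02.

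In complex II, every young CR mouse was below every young AL mouse for Sdhd, at 74.6, 75.1 and 75.7 FPKM against 84.7, 84.5 and 77.2 FPKM. The difference of -0.12 did not pass (standard error 0.08, limma, adjusted p = 0.617), and Sdha, Sdhb and Sdhc were on the other side of 0, at 0.05, 0.09 and 0.15. In ATP synthase, 13 of 15 members were above 0. The c-ring gene Atp5g1 had the largest difference there, 0.27, from 35.4, 27.6 and 42.2 FPKM in AL and 48.1, 50.2 and 30.2 FPKM in CR mice, whose ranges overlapped. Atp5sl, which despite its name is known as an assembly factor of complex I, had the lowest value of all members, -0.32 (limma, adjusted p = 0.487).

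Single mice decided the young counts. The 5 higher members became 0 without young CR mouse 2, with a median of 0.030 (3.6% of all genes higher), and 26 without young CR mouse 3, with a median of 0.159 (7.7% of all genes higher). They became 1 without CR mouse 1 or AL mouse 9, and 2 when AL mouse 10 was left out, and the share of all genes is not given for these. With a quality weight per mouse, 24 members were higher (11.6% of all genes) and 1 passed the adjusted threshold (2.24% of all genes). After removal of the length trend, 3 members were higher and 1 lower (5.43% and 5.7% of all genes), at a median of 0.015. Marker sums of other cells differed between the same groups, and their part in these values was not tested. The 9 adipocyte markers summed to 298 to 340 FPKM in young AL and 569 to 784 FPKM in young CR mice, and the 8 B cell markers to 240.0 to 295 and 143 to 182 FPKM. Osteoblast and osteocyte markers summed to 1665 to 2341 FPKM in AL and 964 to 1434 FPKM in CR mice. This sum is mostly Bglap, Bglap2, Col1a1 and Col1a2, which had lower means in CR mice, as had Ibsp, Sp7 and Runx2. Sost went the other way, at 16.9 to 19.2 FPKM in AL and 20.7 to 27.2 FPKM in CR mice. Dmp1 and Alpl also had slightly higher means under CR. The 7 osteoclast markers summed to 523 to 673 FPKM in AL and 699 to 836 FPKM in CR mice, again without overlap. In bulk tissue fewer cells of a type and less RNA per cell cannot be told apart.

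**Figure D3:**
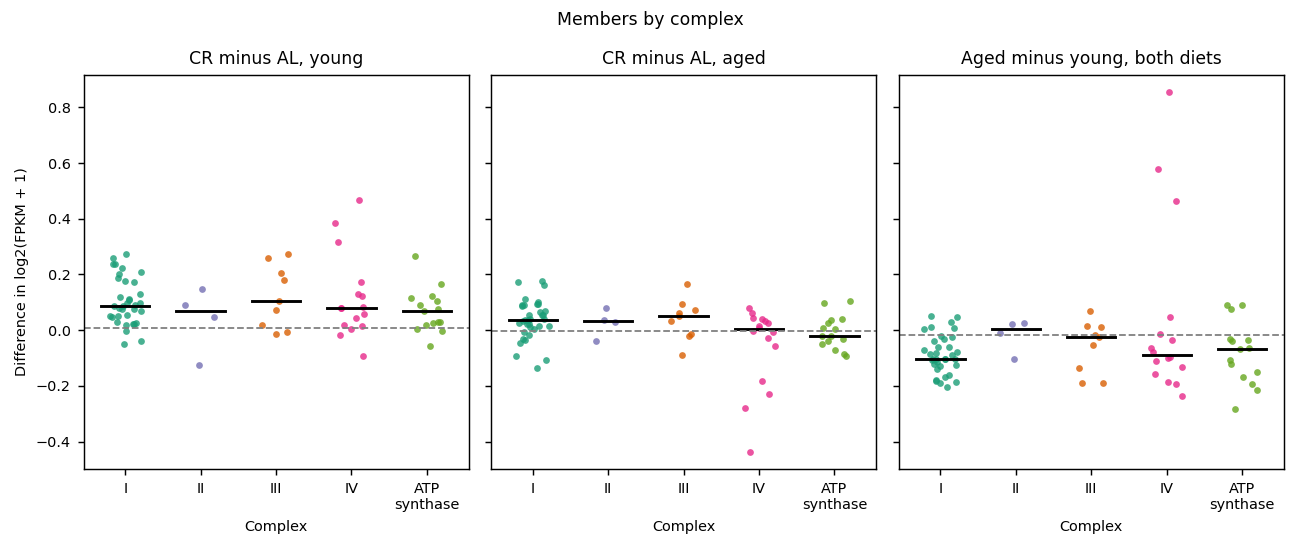
Each point is 1 member, placed by complex, and the vertical axis is the difference in log2(FPKM + 1) for CR minus AL in young mice (left), the same in aged mice (centre) and aged minus young over both diets (right). Black bars are medians over members and the dashed line the median of all 13590 genes tested; in young mice all 5 medians lie above the line, from 0.067 to 0.104.

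The same comparison in aged mice gave values closer to 0. The difference was above 0 for 51 of 81 members (63.0%, against 48.6% of all genes), with a median of 0.025 against -0.004. 0 members passed the adjusted threshold in limma and 0% of all genes did, and the smallest adjusted p was 0.565. With no adjustment, 0 members were higher and 2 lower at p under 0.05 in limma, against 4.5% and 3.22% of all genes. The unequal-variance test called 0 members, with an unadjusted p under 0.05 for 2 higher members and 1 lower. The shares above are those of limma, and none is given here for that test. All CR mice exceeded all AL mice for 2 members (5.7% of all genes) and were below them for 2 (5.33% of all genes). By complex the medians were 0.038 for complex I, 0.034 for complex II, 0.050 for complex III, 0.004 for complex IV and -0.021 for ATP synthase.

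The 2 lower members both belong to complex IV. Cox7a2l, on chromosome 17 from 83501918 to 83517330, binds complexes III and IV into supercomplexes and is known to exist as a shortened allele in C57BL/6 mice. It was at 116, 116 and 126 FPKM in aged AL mice 13, 14 and 15 and at 104, 104 and 107 FPKM in aged CR mice 5, 6 and 7. No CR mouse reached the AL range, and the means were 119 ± 5.87 and 105 ± 1.90 FPKM (SD, n = 3 each), a difference of -0.18 (standard error 0.07, limma, adjusted p = 0.581). Ndufa4l2, a paralogue of Ndufa4 known to be induced by low oxygen, is on chromosome 10 from 127514967 to 127517154. It was at 3.72, 2.42 and 3.18 FPKM in aged AL and 2.13, 1.97 and 1.93 FPKM in aged CR mice, all CR mice below all AL mice (difference -0.44, standard error 0.16, limma, adjusted p = 0.565). In young mice the same gene had been at 2.46, 2.12 and 2.97 FPKM in AL and 3.72, 5.01 and 3.01 FPKM in CR mice, all CR mice above all AL mice (difference 0.47, standard error 0.16).

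Among the higher members in aged mice, Ndufv3, an accessory subunit beside the NADH site, had means of 47.7 ± 5.02 FPKM under AL and 53.9 ± 3.98 FPKM under CR (SD, n = 3 each). AL mouse 14 was lowest, and the difference was 0.18 (limma, adjusted p = 0.728). Ndufv2, which carries an iron-sulfur cluster in the same module, was at 50.5, 52.4 and 50.0 FPKM in AL and 56.2, 54.2 and 54.9 FPKM in CR mice, without overlap (0.11, limma, adjusted p = 0.797). Atp5l, subunit g of the membrane part of ATP synthase, was the other member with every CR mouse above, at 74.8, 75.3 and 77.1 against 79.4, 81.2 and 82.6 FPKM. Uqcr11 and Ndufa5, a peripheral arm subunit of complex I, had 0.17 and 0.16, and Ndufa10, of the membrane arm, 0.10. Ndufs1 was at -0.14, with AL mouse 14 as its highest value.

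In the F1 head, 5 of 5 members were above 0 in young mice and 1 of 5 in aged mice. Their aged differences ran from -0.08 for Atp5c1, the gamma subunit, to 0.00 for Atp5b. Atp5d and Atp5e, the delta and epsilon subunits of the stalk that turns in the head, differed by 0.12 and 0.11 in young and by -0.04 and -0.03 in aged mice. After removal of the length trend the counts over all members in aged mice were again 0 higher and 2 lower (4.92% and 3.1% of all genes), at a median of 0.009. The median became -0.021 without aged CR mouse 5. Without any 1 of aged AL mice 13 and 15 or aged CR mice 5 and 6, 1 member was lower, with no share of all genes given. When the mice farthest from their groups (14 of aged AL, 5 of aged CR) were left out, 2 members were higher and 2 lower (5.9% and 5.04% of all genes), at a median of 0.002. With a quality weight per mouse, 7 were higher (9.57% of all genes) and 1 passed the adjusted threshold (1.42% of all genes). The 9 adipocyte markers summed to 284 to 552 FPKM in AL and 574 to 969 FPKM in CR mice at old age.

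Over both ages, CR against AL gave a difference above 0 for 67 of 81 members (82.7%, against 50.8% of all genes), with a median of 0.052 against 0.003. 0 members passed in limma, where 0.258% of all genes did. With no adjustment, 4 members were higher and 1 lower at p under 0.05 in limma, against 7.42% and 6.45% of all genes. Uqcr11 had the smallest p, at a difference of 0.22 (standard error 0.08, limma, adjusted p = 0.231). Its values in aged mice were 100.5, 121 and 108 FPKM in AL and 133, 113 and 123 FPKM in CR mice, which overlapped. Cox7a2l, at 119.6, 126 and 125 FPKM in young AL and 121, 118 and 108 FPKM in young CR mice, had a difference of -0.14 (standard error 0.05, limma, adjusted p = 0.235) and was the member lower at an unadjusted p under 0.05. Ndufa5 was at 39.7, 41.3 and 41.4 FPKM in young AL, 53.9, 49.7 and 40.4 FPKM in young CR, 38.3, 40.2 and 43.1 FPKM in aged AL and 49.5, 41.1 and 46.0 FPKM in aged CR mice. In both ages 2 of 3 CR mice lay above all AL mice (difference 0.19, standard error 0.08, limma, adjusted p = 0.29). The other 2 higher members were Ndufb9 at 0.14 and Uqcr10 at 0.15, and Ndufb6, Ndufv3 and Ndufa10 followed at 0.16, 0.14 and 0.11. Leaving out young CR mouse 3 raised the count of higher members to 18 (8.76% of all genes) and the median to 0.097. Leaving out young CR mouse 2 lowered the median to 0.024 and the count to 1 (5.46% of all genes). The count was also 1 without young CR mouse 1 or aged CR mouse 7. It was 2 without young AL mouse 9, aged AL mouse 13 or aged CR mouse 5, and the share of all genes is not given for these mice. With a quality weight per mouse, 18 members were higher (13.2% of all genes) and 4 passed the adjusted threshold (6.79% of all genes). With the length trend removed, 2 were higher and 2 lower (7.37% and 6.44% of all genes).

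**Figure D4:**
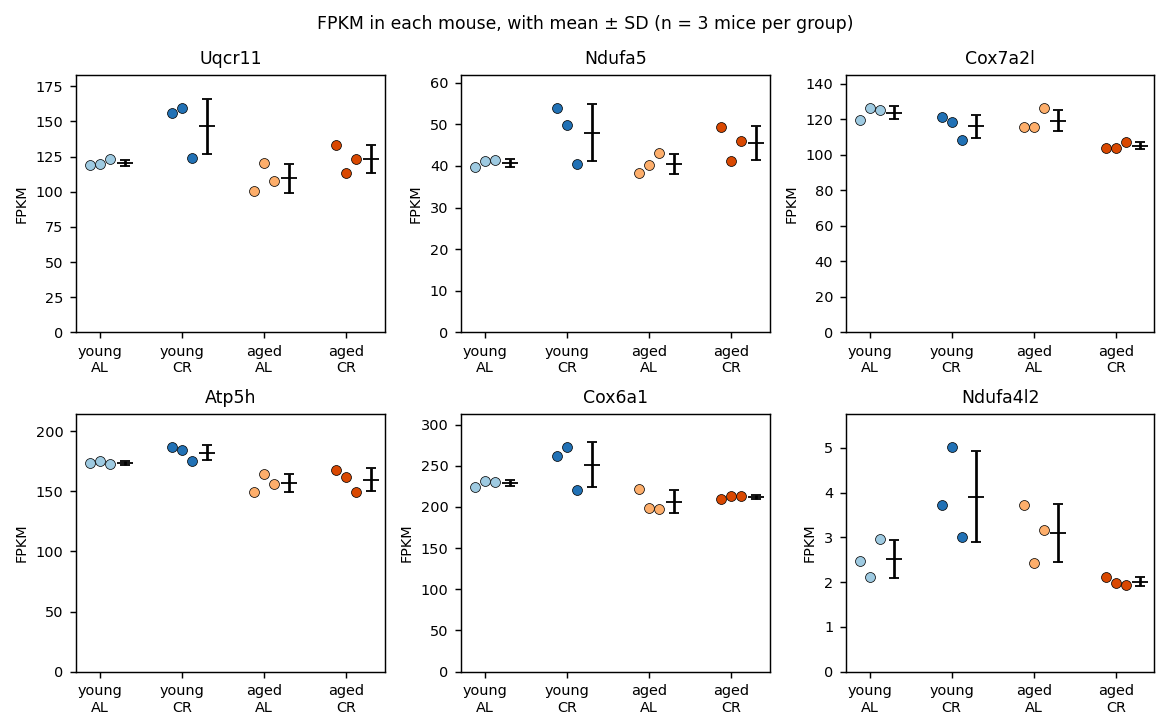
Points are FPKM in each of 3 mice per group for 6 members, and the bars beside them are mean ± SD; axes start at 0. Uqcr11 and Ndufa5 are highest in young CR mice 1 and 2, Cox7a2l is lowest in aged CR mice, all 6 aged mice are below all 6 young mice for Atp5h, and Ndufa4l2 differs with CR in opposite directions in young and aged mice.

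Whether CR acted differently in the 2 ages was tested as the interaction of diet and age, the aged difference minus the young one. 0 members and 0% of all genes passed in limma. At an unadjusted p under 0.05, 0 members were higher and 1 (Ndufa4l2) lower in limma, against 2.37% and 1.86% of all genes. The interaction was below 0 for 65 of 81 members and above 0 for 16 (19.8%, against 47.7% of all genes). The members' median was -0.066 against -0.010 for all genes. It became -0.129 without young CR mouse 3 and -0.023 without young CR mouse 2. A value after removal of the length trend is not given here. Ndufa4l2 was at -0.90 (standard error 0.22, unadjusted p = 0.00197 and adjusted p = 0.999, limma). Next were Uqcrc1 and Ndufs7 at -0.27 and -0.28, Sdhd at 0.20, and Ndufb2 and Ndufc1, of the membrane arm, with Atp5d at -0.29, -0.17 and -0.16, all at a limma adjusted p of 0.999. Atp5sl had 0.22.

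Aged mice were then compared with young mice over both diets. Most members had lower mean levels in aged mice, a balance that was not seen once the length trend was removed (median 0.001). With it removed, 2 members were lower and 1 higher at an unadjusted p under 0.05 in limma, against 6.24% and 8.16% of all genes. Before that removal, the difference was above 0 for 18 of 81 members (22.2%, against 44.4% of all genes), with a median of -0.085 against -0.017. 0 members passed in limma, where 0.758% of all genes did, and the smallest adjusted p was 0.131. At an unadjusted p under 0.05, 1 member was higher and 13 lower in limma, that is 13 of 81 against 9.76% of all genes lower and 6.8% higher. By complex the medians were -0.104 for complex I, 0.005 for complex II, -0.024 for complex III, -0.088 for complex IV and -0.068 for ATP synthase. Within ATP synthase, 7 of 7 members outside the F1 head and the c-ring were below 0, at a median of -0.152, and 3 of the 5 head subunits.

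Atp5h, subunit d of the peripheral stalk that holds the head still, on chromosome 11 from 115415689 to 115419962, had the smallest p. It was at 174, 175 and 172 FPKM in young AL and 187, 185 and 175 FPKM in young CR mice, and at 149.6, 164 and 156 FPKM in aged AL and 168, 162 and 149.6 FPKM in aged CR mice. It was the only member with every aged mouse below every young mouse (0.758% of all genes), and 0 had every aged mouse above (0.581% of all genes). Its difference was -0.17 (standard error 0.05, limma, adjusted p = 0.131). Atp5e was at 219, 244 and 233 FPKM in young AL, 269.8, 282 and 204 FPKM in young CR, 202, 187 and 211 FPKM in aged AL and 216, 179 and 193 FPKM in aged CR mice. Young CR mouse 3, at 204 FPKM, lay within the aged range, and the difference was -0.28 (standard error 0.08, limma, adjusted p = 0.148). Of the other ATP synthase members, Atp5j2 (subunit f) had -0.21, Atp5l -0.19 and Atp5f1 (subunit b of the peripheral stalk) -0.11. Atp5s, known as coupling factor B, had -0.19.

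In complex IV, Cox6a1, on chromosome 5 from 115345642 to 115348981, was at 224, 232 and 230.3 FPKM in young AL, 262, 272 and 220.0 FPKM in young CR, 222, 199 and 198 FPKM in aged AL and 209.7, 214 and 213 FPKM in aged CR mice. Only aged AL mouse 13 and young CR mouse 3 were in each other's range, at a difference of -0.20 (standard error 0.06, limma, adjusted p = 0.153). Ndufa4 was at 200.4, 203 and 197 FPKM under AL and 215, 221 and 184 FPKM under CR at young age, and at 181, 183 and 179 FPKM under AL and 188, 181 and 180.4 FPKM under CR at old age. Young CR mouse 3 was below aged CR mouse 5, with a difference for age of -0.16 (limma, adjusted p = 0.181). Cox6c, a small subunit without a tissue isoform, had -0.19. In complex III the lower members were Uqcrh at -0.19 and Uqcr11 at -0.19, and in complex I Ndufb8 at -0.19 and Ndufc1 at -0.16, both of the membrane arm.

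Within complex I, 5 of 16 members of the peripheral arm were above 0 for age, at a median of -0.087, and 1 of 19 in the membrane arm, at a median of -0.104. The 7 core subunits, all of the peripheral arm, held 4 of those above 0, at a median of 0.003, and the difference between these groups of subunits was not tested. Single mice moved the counts over all complexes. Without young CR mouse 3, 34 members were lower at an unadjusted p under 0.05 (12% of all genes) and 8 passed the adjusted threshold (1.61% of all genes), and without young CR mouse 2, 5 were lower (7.1% of all genes) and 0 passed (0.155%). The lower members were 6 without young CR mouse 1 and 8 without young AL mouse 11 or aged CR mouse 6, and the share of all genes is not given for these. With a quality weight per mouse, 41 were lower (18.4% of all genes) and 22 passed (13.2% of all genes). When mice 14 (aged AL) and 5 (aged CR) were left out, 18 were lower (9.37% of all genes) and 0 higher (7.22% of all genes).

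The member higher with age at an unadjusted p under 0.05 was Cox8b, and the muscle isoforms of complex IV varied between mice alongside the skeletal muscle markers, whose part in their values was not tested. Cox8b, on chromosome 7 from 140898945 to 140900446, was at 5.52, 3.35 and 6.43 FPKM in young AL and 6.62, 12.5 and 3.54 FPKM in young CR mice, and at 9.34, 16.5 and 12.6 FPKM in aged AL and 15.6, 3.63 and 17.0 FPKM in aged CR mice. Values spread widely within each CR group and young and aged mice overlapped, and the difference for age was 0.85 (standard error 0.36, limma, adjusted p = 0.269). Cox6a2 was at 7.88, 4.78 and 9.31 FPKM under AL and 7.98, 14.5 and 4.44 FPKM under CR in young mice, and at 8.22, 18.5 and 10.8 FPKM under AL and 17.2, 4.13 and 21.5 FPKM under CR in aged mice. In the same order of groups, Cox7a1 was at 4.48, 2.82 and 6.91 FPKM under AL and 5.84, 14.5 and 2.01 FPKM under CR, and at 5.45, 14.1 and 6.90 FPKM under AL and 10.4, 2.51 and 10.9 FPKM under CR. Each of the 3 genes had its 3 lowest values in young CR mouse 3, aged CR mouse 6 and young AL mouse 10. These mice also had the 3 lowest sums of the 12 muscle markers, 183, 195 and 241 FPKM, and the highest sums, 1399 and 1160 FPKM, were those of aged AL mouse 14 and aged CR mouse 7. Muscle markers had a median difference of 0.78 for age, 0.15 for CR in young and -0.37 in aged mice, and Cox8b itself 0.38 and -0.28 for CR. Cox6a2 was 1.93% to 10.1% of Cox6a1 in FPKM, Cox7a1 1.51% to 10.1% of Cox7a2 and Cox8b 1.32% to 7.02% of Cox8a. Cox8a stayed between 241 and 258 FPKM in all mice. Cox8b and Cox7a1 are also known to be expressed in brown fat, and its 4 markers summed to 1.13 to 2.16 FPKM per mouse. Of these, Ucp1 had group means of 0 to 0.0694 FPKM. Cidea was at 0.0517 FPKM in AL against 0.384 FPKM in CR at young age and at 0.035 against 0.46 FPKM at old age. Dio2 went the other way, at 1.37 against 1.33 FPKM and at 1.22 against 1.06 FPKM. Elovl3 was at 0.0762 against 0.172 FPKM at young age and at 0.0483 against 0.0155 FPKM at old age. Only Dio2 averaged 1 FPKM or more, so the others were not among the genes tested.

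**Figure D5:**
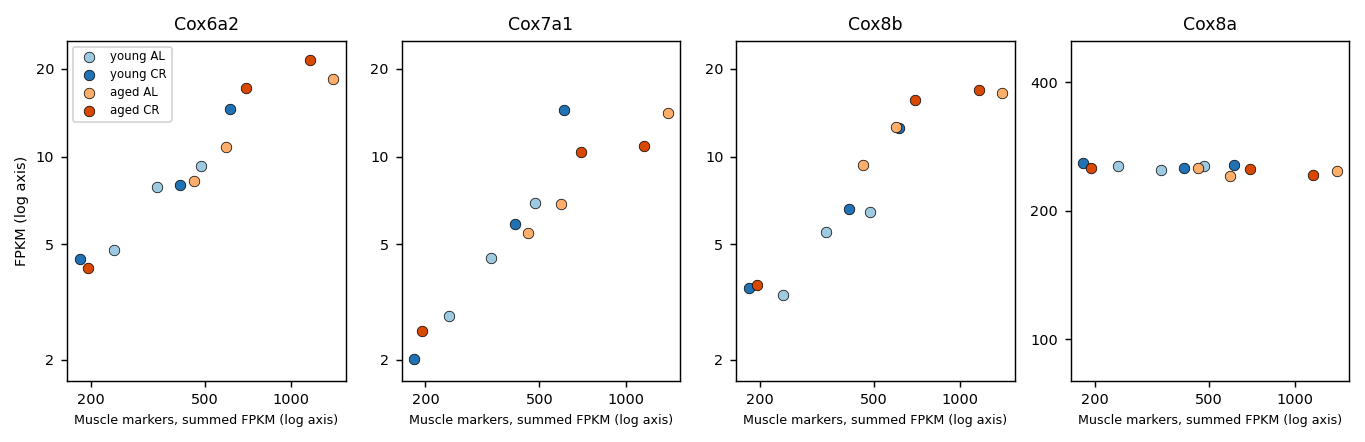
Each point is 1 mouse, coloured by group, with the summed FPKM of 12 skeletal muscle markers on the horizontal and the FPKM of Cox6a2, Cox7a1, Cox8b or Cox8a on the vertical axis, both logarithmic. The muscle isoforms are lowest in the 3 mice with the lowest marker sums (183 to 241 FPKM), and Cox8a is level across the range.

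Of the other isoform families, Cox6b1 and Cox6b2 differed with age by -0.08 and -0.13, Cox7a2 by -0.10 and Cox7b, a separate subunit, by -0.06, none past the threshold. Ndufa4l2 was 1.04% to 2.26% of Ndufa4 in FPKM. Cox4i1 was at 321 ± 4.91, 363 ± 39.1, 321 ± 15.2 and 320 ± 18.0 FPKM (SD, n = 3 each; young mice on AL, then on CR, then aged mice likewise), and Cox4i2 at 2.53 ± 0.465, 3.68 ± 1.03, 2.18 ± 0.964 and 3.47 ± 1.67 FPKM, a difference with CR over both ages of 0.43 (limma, adjusted p = 0.379). In the c-ring, Atp5g1, Atp5g2 and Atp5g3 differed with CR over both ages by 0.14, 0.06 and 0.00. Of the SDH subunits, Sdhc had the largest difference with age, -0.10, and Sdha, Sdhb and Sdhd were at 0.03, -0.01 and 0.02.

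Other genes of mitochondria were taken from lists chosen by function. Of 41 tested assembly factors, which build the complexes without staying in them, 0 passed in limma in any of the 5 comparisons. At an unadjusted p under 0.05 for CR over both ages, 3 were higher and 0 lower, against 7.42% and 6.45% of all genes, at a median of 0.064. The 3 smallest p belonged to Ndufaf2 (complex I, 0.25), Uqcc2 (complex III, 0.26) and Sco2, a copper chaperone of complex IV (0.26). Uqcc2 was at 48.1 ± 5.98 FPKM in young AL and 63.7 ± 11.4 FPKM in young CR mice (SD, n = 3 each). Besides the Cox4 family, 3 of 4 listed genes that the name rule misses were tested. These were Atpif1, the inhibitor of ATP synthase, Usmg5, one of its membrane subunits, and Ndufab1, the acyl carrier protein of complex I. Their differences with CR over both ages were 0.11, 0.09 and 0.05, with 0 past the adjusted and 0 past the unadjusted threshold in limma. With age Atpif1 and Usmg5 were at -0.19 and -0.18, both past the unadjusted threshold only.

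Enzymes of the citric acid cycle, which feed the chain, had a median of 0.057 with CR in young mice and 0.001 in aged mice, over 14 genes. Idh3a, a subunit of isocitrate dehydrogenase, was at 17.6 ± 0.537 FPKM in young AL and 21.9 ± 0.531 FPKM in young CR mice (SD, n = 3 each). Its difference was 0.30 (limma, adjusted p = 0.468). Suclg2 and Mdh2 had differences of 0.22 and 0.14 in young mice (limma, adjusted p = 0.42 and 0.538). In aged mice the differences with CR were -0.0023 for Idh3a, 0.07 for Suclg2 and -0.0001 for Mdh2. With age 11 of the 14 were above 0, against 44.4% of all genes, at a median of 0.034. Of 13 regulators of mitochondrial transcription, 5 were above 0 with CR over both ages, at a median of -0.054. Tfb1m, which methylates mitochondrial ribosomal RNA, Esrra, an estrogen-related receptor, and Polg2, of the mitochondrial DNA polymerase, had differences of 0.18, -0.15 and -0.15. Of 12 genes for coenzyme Q synthesis and cytochrome c, 7 were above 0, with Coq7 at -0.21, Coq5 at 0.16 and Pdss1 at -0.19. Markers of the outer membrane and matrix, 13 genes, had a median of -0.007, with the chaperones Hspe1 and Hspd1 at 0.17 and 0.13 and the pore protein Vdac2 at -0.08. In these 4 lists 0 genes passed in limma in any comparison, and at an unadjusted p under 0.05 for CR over both ages 2 were higher and 1 lower, against 7.42% and 6.45% of all genes.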

How the data were processed

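RNA of whole tibiae was sequenced by the authors from stranded mRNA libraries. Per the labels and the study's methods, quality was checked with FastQC 0.11.8 and MultiQC 1.6, reads were trimmed with Trim Galore 0.5.0, aligned to mm10 with STAR 2.6.1 and quantified with StringTie 2.1.3b, and the deposited FPKM values were quantile normalized in R 4.1.1 by the authors. The sources used here do not say how the 4 technical repeats of a mouse were merged. FPKM keep no depth, so no counting interval was given.

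Here, log2(FPKM + 1) of the 13590 genes averaging 1 FPKM or more was fitted with limma 3.58.1 (R 4.3.3, trended variance, 4 group means, all 12 mice), and p-values were adjusted by Benjamini-Hochberg over all genes. The fit was also run on simulated data of independent genes, with changes larger than nearly all differences of the members. That run does not bear on differences as small as these. The study's own test, with unequal variances, was an alternative, as were another pseudocount (0.1), no filter, size-factor scaling, a quality weight per mouse, the 2 groups alone, each mouse left out, and removal of a transcript length trend, chosen after seeing the data. Gene positions were from GENCODE M21 (GRCm38). Members and gene lists were chosen with earlier results of these data known. Members were named when called, when among the 8 smallest p of a comparison, at either end of a complex's levels, or in an isoform family or succinate dehydrogenase, and other mitochondrial genes when among the 3 smallest p of their list. Individual values of 1 member are not reported here.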

Additional observations from a re-analysis of the deposited data

Results flagged for a closer look

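1 member was set apart by opposite differences with CR in the 2 ages. Ndufa4l2 was above every AL mouse in each CR mouse at young age and below every AL mouse in each CR mouse at old age. Its group means were 2.52 ± 0.431 (young AL), 3.91 ± 1.01 (young CR), 3.10 ± 0.650 (aged AL) and 2.01 ± 0.103 FPKM (aged CR; SD, n = 3 mice each). The CR effect in aged minus young mice was -0.90 on the log2 scale. This interaction did not pass over all genes (limma, unadjusted p = 0.00197 and adjusted p = 0.999). Of all 13590 genes tested, 32 (0.24%) had such an opposite pattern without overlap. With the 12 mice at 1.93 to 5.01 FPKM, the gene was the lowest of the members, and read counts behind these values were not used here.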

How the results depend on the processing

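No paired analysis was possible because the labels tie no mouse of 1 group to a mouse of another: their shared numbers mark technical repeats. Controls are described as littermates, but which mice shared a litter is not given. With a quality weight per mouse, members past the adjusted threshold numbered 1 (young), 1 (aged), 4 (both ages) and 22 (age), against 0 without it. The shares of all genes with the weight were 2.24%, 1.42%, 6.79% and 13.2%. At an unadjusted p under 0.05 the same weight gave 24, 7, 18 and 0 higher members in these comparisons, 1 lower in young mice and 41 lower for age. Of all genes, 11.6%, 9.57%, 13.2% and 12.9% were higher, 10.8% lower in young mice and 18.4% lower for age. The unequal-variance test gave 0 higher in young mice, and 2 higher and 1 lower in aged mice. No share of all genes is given for that test, so these counts have no background here. When mice 14 (aged AL) and 5 (aged CR) were left out, 2 were higher in aged mice (5.9% of all genes) and 0 higher with age (7.22%). Without the filter on low values 0 were higher with age, with no share of all genes given. Removing the length trend left 3 higher and 1 lower in young mice (5.43% and 5.7% of all genes). It left 2 and 2 over both ages (7.37% and 6.44%), and 2 lower with age (6.24%). Leaving out each mouse in turn gave 0 to 8 members past the adjusted threshold for age. It gave 0 to 26 higher and 0 to 1 lower members in young mice, 0 to 1 and 1 to 2 in aged mice, 1 to 18 and 1 to 2 over both ages, and 0 to 2 and 5 to 34 for age. Without young CR mouse 3 the upper ends were reached for young mice, both ages and lower members with age. The share of all genes moved with the mouse left out. Without young CR mice 2 and 3 in turn, it was 3.6% and 7.7% higher in young mice and 5.46% and 8.76% higher over both ages. For age it was 7.1% and 12% lower. For the other mice left out the share is not given. Of the values of named members under these alternatives, 733 kept their direction and side of the adjusted threshold, 19 newly passed it and 0 changed direction. These members were picked for the smallest p in the same mice, most of which each alternative reuses. A kept direction was thus largely set beforehand, and no conclusion is drawn from it. Of the counts and medians over all members, 58 shifted beyond a fixed margin and 280 stayed within it. The cause of these shifts was not tested.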
